A study of Saccharomyces cerevisiae with 6 samples.

Results

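The genes of entry into the endoplasmic reticulum (ER), of folding there and of the COPII and COPI vesicle coats were followed as extended mRNAs in pools of yeast strains. The list holds 37 genes, chosen by function: the signal recognition particle and its receptor, the translocon, signal peptidase, ER folding factors, both coats, early Golgi factors and the Cdc48 complex. A gene counted as measured where the platform's probe symbol matched and a value stood on at least 2 of the 6 arrays, which 16 of the 37 genes met, among 655 named genes in all. Of these 16, 12 had a value on all 6 arrays and were compared between pools. The other 21 listed genes had no value on any array.

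Proteins that enter the secretory pathway are recognised at the ribosome by the signal recognition particle, an RNA-protein complex that docks on its receptor in the ER membrane. The chain then passes through the Sec61 channel, alone or with the Sec62/Sec63 complex that handles proteins delivered after translation. Cargo leaves the ER in vesicles coated by COPII, and the COPI coat returns material from the Golgi to the ER. Nonsense-mediated decay removes mRNAs that end translation too early or carry an unusually long 3' end, and it needs the factors Nam7 (Upf1) and Nmd2 (Upf2).

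All strains carried a DAmP allele, in which a resistance cassette placed behind an essential gene gives its mRNA an extended 3' end that holds the strain's barcode. The DAmP pool, whose haploid strains derive from BY4742/BY4741, was crossed with a deletion of NMD2, of NAM7 or of YEL068C, the last serving as reference. The haploid strains with both alleles were grown for 18 generations under G418 and nourseothricin. Each pool stands for 1 cross and was read on 2 arrays, numbered 1 and 2, which the series text calls technical replicates begun from the cell material, so p-values measure the spread between such arrays only. Each value compares a strain's barcode amplified from RNA (Cy3) with the same barcode amplified from genomic DNA of another aliquot (Cy5). The DNA accounts for how many cells of a strain the pool held, but more synthesis and less decay of an mRNA cannot be told apart.

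The labels settle neither the numerator nor the base of the ratio; its range of -6.2 to 4.09 led to a reading in base 2. Of 46 abundantly expressed genes, listed with earlier results of these data known, 12 had values on all arrays. In the YEL068C pool 11 of these 12 lay below 0 in the deposited sign, with a median of -3.49, against 57.0% of all features. The deposited ratio was therefore read as likely DNA over RNA, opposite to the order in which the labels name RNA and DNA, and its sign was turned. With the other reading, genes given as higher would be lower. Values are log2 RNA over DNA relative to the median of the 444 features valued on all arrays, and a level of 0 is that median. All strains carry an extended mRNA and each deposited column already had a median of 0, so a change shared by most features cannot be seen. Higher and lower are therefore relative to the other features, and a gene given as lower need not have fallen in absolute terms. The arrays gave values for 658 to 798 of 15743 probes. Arrays with the same number deviated together in all pools (correlations across features 0.853 to 0.894), so differences are also given with the number as a block, which lowered the median SE of the 12 genes from 0.282 to 0.125. None of the deleted loci had a value (0 of 3), which leaves each deletion without a check by its own signal. None of the 37 genes lies within 100 kb of a deleted locus in the RefSeq assembly R64, and ERO1 is the 1 measured gene on a chromosome that carries one, that of NAM7.

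The extended mRNAs of these genes spanned a wide range of levels. In the order of their mean in the YEL068C pool they were SEC26, ERO1, COP1, SEC27, SEC24, SRP72, SEC62, SRP54, YKL154W, SRP21, YDR292C and SEC12. The beta-COP gene SEC26 stood highest of the 12 in every pool, at 1.58 ± 0.51 for NMD2, 1.57 ± 0.41 for NAM7 and 1.65 ± 0.29 for YEL068C (SD, n = 2 arrays each). SEC12, whose product loads the GTPase Sar1 to start COPII assembly, stood lowest of the 12, at -1.12 ± 0.64 for NMD2, -1.06 ± 0.40 for NAM7 and -1.20 ± 0.43 for YEL068C. The order was another in each pool, and with the genes ordered by each pool's own means, the arrays of neighbours overlapped in 10 of 11 pairs with NMD2 deleted, 9 of 11 with NAM7 deleted and 9 of 11 with YEL068C deleted. The step from YDR292C to SEC12 was the 1 that stood apart in all 3 pools. Above the median of all features were 10 of the 12 genes with NMD2 deleted, 10 with NAM7 deleted and 8 with YEL068C deleted.

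**Figure D1:**
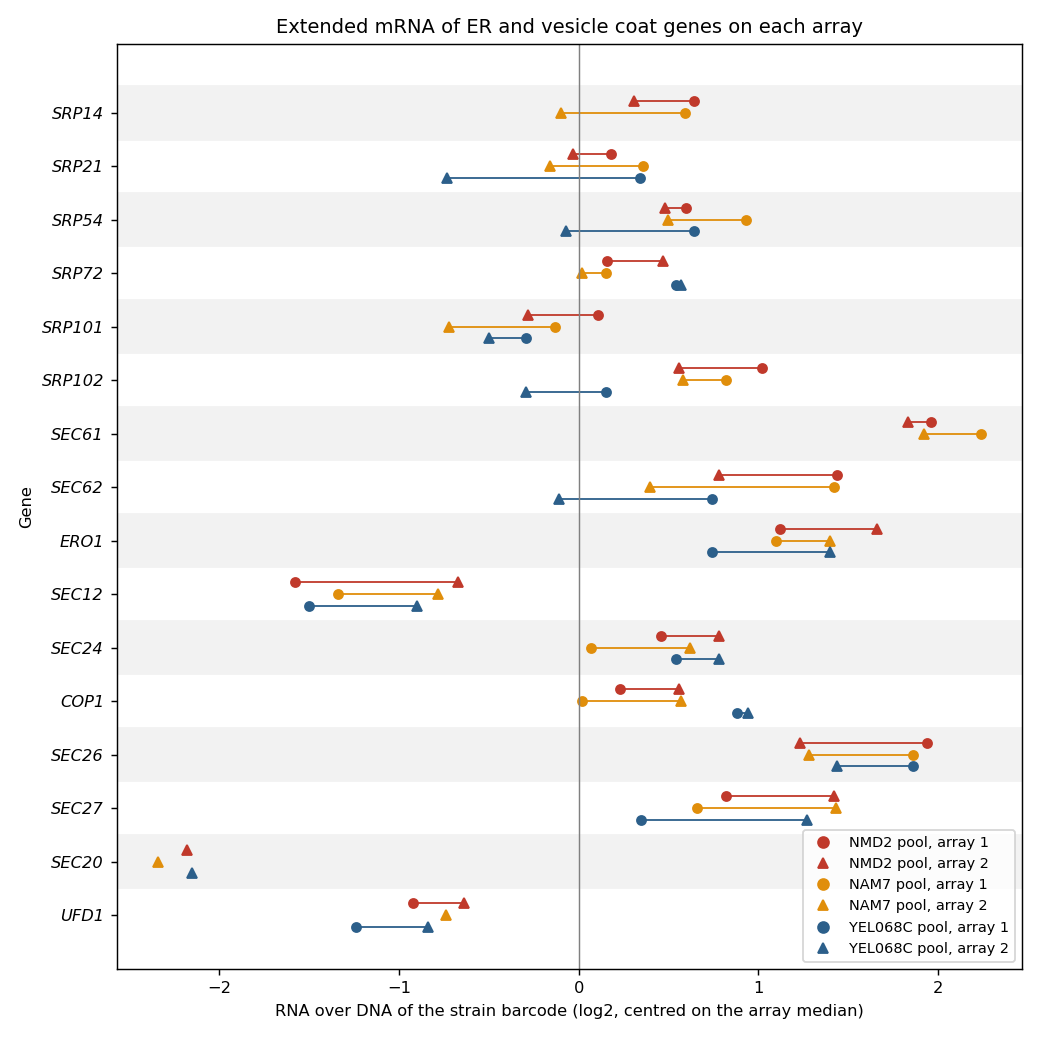
Level of the extended mRNA of the 16 measured genes on each array (log2 RNA over DNA, 0 is the array median over 444 features), with a line joining the 2 arrays of a pool. SEC20 lies lowest at -2.34 to -2.15 on its 3 arrays, SEC61 has no YEL068C value, and the YKL154W mutant arrays lie above both YEL068C arrays.

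Setting the mean of both mutant pools against the YEL068C pool asks which of these mRNAs shift relative to the others once a decay factor is deleted. YKL154W, the gene of the receptor subunit Srp102p, and SEC62, genes of the ER membrane machinery, were higher by 0.81 and 0.69, and COP1, the alpha-COP gene, was lower by 0.56 on the log2 scale (4 against 2 arrays). Without the block 0 of 12 genes passed the threshold of 0.05 after Benjamini-Hochberg adjustment in limma, where percent called over all 444 features was 4.05, and 1 of 12 had an unadjusted p under 0.05 (26.6% of all features). With the block 5 of 12 passed, against 59.9% of all features. These were 3 increases (29.7% of all features), YKL154W, SEC62 and SRP54, and 2 decreases (30.2%), COP1 and SRP72. The median change of the 12 genes was 0.20, with 8 above 0, beside 0 for all features with 222 of 444 above 0. It was 0.08 without further centring of the deposited columns, whose median was already 0. When 1 array was left out it ran from 0.01 to 0.27, at 0.03 without YEL068C array 1 and 0.01 without YEL068C array 2. All 4 mutant arrays lay on 1 side of both YEL068C arrays for 3 of the 12 genes, YKL154W higher and SRP72 and COP1 lower, against 41.9% of all features (22.1% higher and 19.8% lower).

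The signal recognition particle had 4 of 6 listed protein genes measured. SRP54 encodes the GTPase subunit that binds the signal sequence. Its level was 0.60 and 0.48 on the NMD2 arrays, 0.93 and 0.50 on the NAM7 arrays and 0.64 and -0.07 on the YEL068C arrays, so the pools overlapped through the first YEL068C array. It rose by 0.34 (SE 0.14, adjusted p = 0.0444 with the block and 0.461 without it, both from limma). The rise came to 0.13 for the first arrays and 0.56 for the second, and the blocked call was lost when YEL068C array 2, either NAM7 array or NMD2 array 2 was left out, without centring, and among the 587 features valued at least once in each pool. Without YEL068C array 2 the unblocked difference was -0.01.

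SRP72 encodes a protein that joins Srp68 on the particle's RNA, and it went the other way. Its level was 0.16 and 0.47 on the NMD2 arrays, 0.15 and 0.02 on the NAM7 arrays and 0.54 and 0.57 on the YEL068C arrays, without overlap. The difference was -0.36 (SE 0.13, adjusted p = 0.0283 with the block and 0.303 without it, both from limma), -0.39 in arrays numbered 1 and -0.33 in arrays numbered 2. The blocked call did not survive leaving out either YEL068C array, NAM7 array 2 or NMD2 array 1, where the highest adjusted p was 0.152. SRP54 and SRP72 thus had blocked calls of opposite sign within 1 complex, a contrast between genes that was not itself tested.

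SRP21, a small subunit of the particle, lay at 0.18 and -0.03 on the NMD2 arrays, 0.36 and -0.16 on the NAM7 arrays and 0.34 and -0.73 on the YEL068C arrays. The second YEL068C array alone was low, and the difference of 0.28 (SE 0.35, adjusted p = 0.64 in limma, 0.136 with the block) stood at -0.07 for the first arrays and 0.63 for the second. Without YEL068C array 2 the difference was -0.25 without the block and -0.068 with it. Without YEL068C array 1 it was 0.815 without the block and 0.632 with it. SRP14, a further small subunit, had values on the mutant arrays only, 0.64 and 0.31 in the NMD2 pool and 0.59 and -0.10 in the NAM7 pool.

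The receptor has 2 subunits, and both genes had values on all arrays. YKL154W encodes Srp102p, the membrane-anchored beta subunit, and carries that symbol in the plots. Its level was 1.02 and 0.56 on the NMD2 arrays, 0.82 and 0.58 on the NAM7 arrays and 0.15 and -0.29 on the YEL068C arrays, and every mutant array was higher than both YEL068C arrays. It rose by 0.81 (SE 0.12, adjusted p = 0.000119 with the block and 0.104 without it, both from limma), by 0.77 in arrays numbered 1 and 0.85 in arrays numbered 2. The blocked call held in 6 of 6 fits that left out 1 array (highest adjusted p = 0.0148). YDR292C encodes Srp101p, the alpha subunit that meets the ribosome-bound particle. Its level was 0.11 and -0.28 on the NMD2 arrays, -0.13 and -0.72 on the NAM7 arrays and -0.29 and -0.50 on the YEL068C arrays. These arrays overlapped, and the difference of 0.14 (SE 0.13 with the block) did not pass (adjusted p = 0.362 with the block and 0.771 without it, both from limma). A second YDR292C probe without a value on NAM7 array 2 differed from the first by at most 0.25.

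Of the translocon genes, SEC62 had values on all arrays. Its product works with Sec63 in post-translational entry. The level was 1.44 and 0.78 on the NMD2 arrays, 1.42 and 0.40 on the NAM7 arrays and 0.74 and -0.11 on the YEL068C arrays. The first array was the higher in each pool, by 0.66 to 1.02, so the pools overlapped although each mutant array lay above the YEL068C array of its number. SEC62 rose by 0.69 in both sets of same-numbered arrays (SE 0.12, adjusted p = 0.000463 in limma with the block, SE 0.40 and adjusted p = 0.31 without it), and the blocked call held in 6 of 6 fits without 1 array (highest adjusted p = 0.0187). Without the block, leaving out 1 array gave 0.27 (without YEL068C array 2) to 1.115 (without YEL068C array 1).

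SEC61, the gene of the channel itself, had the highest mean of the listed genes in both mutant pools, 1.96 and 1.83 on the NMD2 arrays and 2.24 and 1.92 on the NAM7 arrays. It had no value on either YEL068C array, as was the case for 30 named genes valued on all mutant arrays, so no change against the reference can be given. The other listed translocon genes, SEC63, SSS1 and SSH1, had no value, nor did the listed signal peptidase genes SEC11 and SPC3.

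ER folding was represented by 1 of 4 listed genes. ERO1 encodes the oxidase that supplies disulfide bonds through Pdi1. Its level was 1.12 and 1.66 on the NMD2 arrays, 1.10 and 1.40 on the NAM7 arrays and 0.74 and 1.40 on the YEL068C arrays. The pools overlapped, and the difference of 0.25 (SE 0.12, adjusted p = 0.0983 with the block and 0.608 without it, both from limma) did not pass. The chaperone genes KAR2 and LHS1 and the disulfide isomerase gene PDI1 had no value.

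Among COPII genes, SEC12 lay at -1.58 and -0.67 on the NMD2 arrays, -1.34 and -0.78 on the NAM7 arrays and -1.50 and -0.90 on the YEL068C arrays. The arrays of a pool lay further apart than the pools, and the difference of 0.11 (SE 0.13 with the block, adjusted p = 0.482 in limma) did not pass and was -0.012 without centring. SEC24, the gene of the cargo-binding coat subunit, lay at 0.46 and 0.78 on the NMD2 arrays, 0.07 and 0.62 on the NAM7 arrays and 0.54 and 0.78 on the YEL068C arrays. Its difference was -0.18 (SE 0.12 with the block, adjusted p = 0.215 in limma), at -0.04 in the NMD2 pool and -0.32 in the NAM7 pool, with overlap in both. Without centring, which moved the median of all features by -0.12, SEC24 passed with the block. SAR1, SEC23, SEC31 and SEC16 had no value.

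The 3 measured COPI genes encode subunits of 1 complex, and 1 of them passed with the block, against 59.9% of all features; differences between these genes were not tested. COP1 lay at 0.23 and 0.56 on the NMD2 arrays, 0.02 and 0.57 on the NAM7 arrays and 0.88 and 0.94 on the YEL068C arrays, with every mutant array below both YEL068C arrays. The change was -0.56 (SE 0.13, adjusted p = 0.00252 with the block and 0.199 without it, both from limma), -0.75 in arrays numbered 1 and -0.38 in arrays numbered 2. It kept its blocked call in 5 of 6 fits without 1 array and lost it without YEL068C array 1 (adjusted p = 0.0812).

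SEC26, beta-COP, lay at 1.94 and 1.23 on the NMD2 arrays, 1.86 and 1.28 on the NAM7 arrays and 1.86 and 1.44 on the YEL068C arrays. The pools overlapped almost wholly, and the difference of -0.07 (SE 0.12 with the block) did not pass (adjusted p = 0.641 with the block and 0.915 without it, both from limma). SEC27, beta'-COP, lay at 0.82 and 1.42 on the NMD2 arrays, 0.66 and 1.43 on the NAM7 arrays and 0.35 and 1.27 on the YEL068C arrays. Its difference of 0.28 (SE 0.12, adjusted p = 0.0701 with the block and 0.684 without it, both from limma) came to 0.39 for the first arrays and 0.16 for the second. The 2 probes of COP1 and of SEC26 differed by at most 0.13 on any array. The median of this largest difference was 0.14 over the 83 genes with 2 probes valued on all arrays. SEC21, RET2 and RET3 had no value.

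Outside the coats, SEC20, a SNARE gene of transport back to the ER, had the lowest level of the measured list and values on arrays numbered 2 only. They were -2.18 for NMD2, -2.34 for NAM7 and -2.15 for YEL068C, differences of -0.03 and -0.18 from the reference with no replicate behind them. UFD1, a Cdc48 partner that draws misfolded proteins out of the ER membrane, lay at -0.92 and -0.64 on the NMD2 arrays, -0.74 on 1 NAM7 array and -1.24 and -0.84 on the YEL068C arrays. Fitted on the 587 features valued at least once in each pool, its difference was 0.20 with the block (SE 0.15, adjusted p = 0.269 in limma) and 0.29 without it (SE 0.27, adjusted p = 0.54). CDC48, NPL4 and the Arf exchange factor genes GEA1 and SEC7 had no value.

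Each mutant pool was also set against the reference alone, which shares the YEL068C arrays between both comparisons. In the NMD2 pool 0 of 12 genes passed in limma without the block (percent called over all features 0; unadjusted p under 0.05 in 1 of 12, against 22.3%). The block gave 3 of 12, against 53.8% of all features (28.4% higher and 25.5% lower). They were YKL154W (0.86, SE 0.14, adjusted p = 0.000318), SEC62 (0.80, SE 0.14, adjusted p = 0.000666) and COP1 (-0.52, SE 0.15, adjusted p = 0.0114). In the NAM7 pool 0 of 12 passed in limma without the block (percent called 0; unadjusted p under 0.05 in 1 of 12, against 20.5%). The block gave 5 of 12, against 50.7% (25.7% higher and 25% lower). YKL154W differed by 0.76, SEC62 by 0.59 and COP1 by -0.61 in that pool (blocked adjusted p = 0.000685, 0.00451 and 0.00464), and SRP54 (0.43, 0.0365) and SRP72 (-0.48, 0.0176) passed as well. In each blocked fit without 1 array, fewer of all features passed than with all arrays. The NMD2 pool lost the blocked call of COP1 without YEL068C array 1 or either NMD2 array. The NAM7 pool lost those of SEC62, COP1 and SRP54 without NAM7 array 1. Without YEL068C array 1 the NAM7 pool lost COP1 and SRP72, and SRP21 was gained in both mutant pools. SRP54 was lost in the NAM7 pool without any array other than YEL068C array 1, and SRP72 without either YEL068C array or NAM7 array 2. SRP54 and SRP72 stood at 0.26 and -0.24 in the NMD2 pool, which did not pass. The SRP54 value of the NMD2 pool stood at -0.04 for the first arrays and 0.55 for the second.

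**Figure D2:**
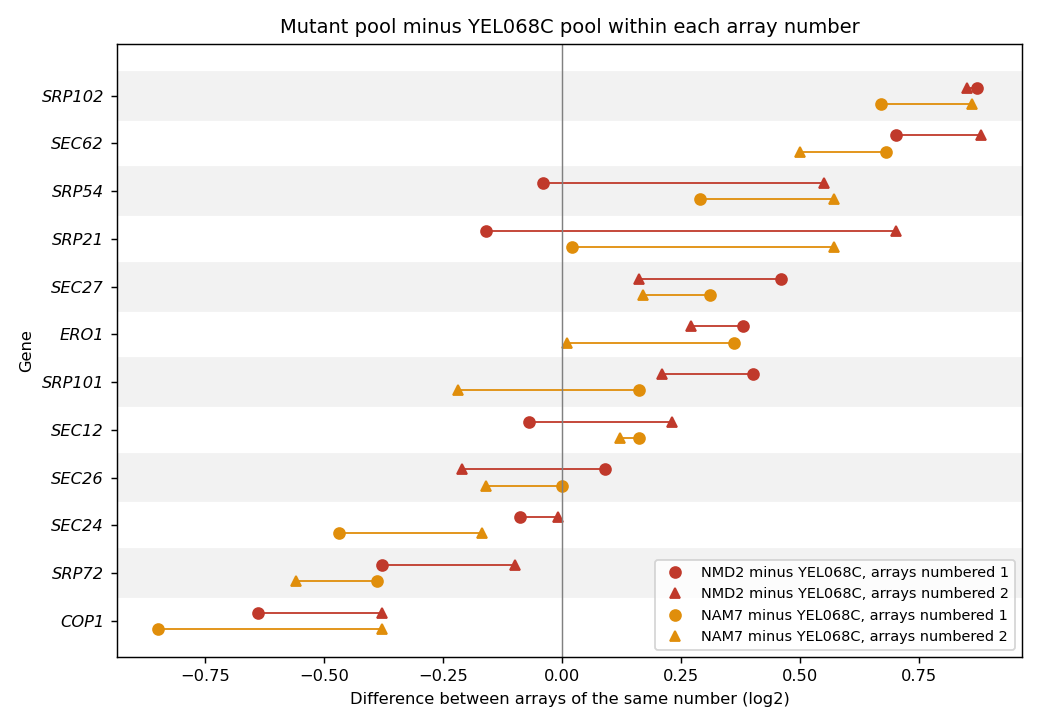
Difference from the YEL068C pool for 12 genes, taken within arrays numbered 1 (circles) and within arrays numbered 2 (triangles), for the NMD2 and NAM7 pools (log2). YKL154W and SEC62 lie between 0.50 and 0.88 in all 4 differences and COP1 between -0.85 and -0.38, while SRP21 and SRP54 spread from -0.16 and -0.04 upwards.

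The direct comparison of the NMD2 pool with the NAM7 pool asks how far the losses of Nmd2 and of Nam7 differ in their effect on these mRNAs. Of the 12 genes 0 passed in limma without the block (percent called over all features 0; unadjusted p under 0.05 in 0 of 12, against 0.45%). The block also gave 0 of 12 (percent called 0; unadjusted 1 of 12, against 12.4%). The largest difference was that of YDR292C, 0.34 higher in the NMD2 pool (SE 0.14, adjusted p = 0.381 with the block), at 0.24 in arrays numbered 1 and 0.43 in arrays numbered 2. SEC24 (0.28), SRP72 (0.23) and SEC62 (0.20) were next on the positive side and SRP54 was lowest at -0.18, none past the threshold. YKL154W differed by 0.09 and COP1 by 0.10 between the mutant pools. With the YEL068C arrays left aside, SEC61 differed by -0.18 and SRP14 by 0.24 among 502 features (SE 0.16 each, adjusted p = 0.671 and 0.578 in limma with the block). A p that misses the threshold does not show that the pools were equal.

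Gene length was not used to choose the list. Over all other features valued on all arrays, shorter genes had higher changes than longer ones, and the ER and coat genes were set beside them by gene span from start to stop codon, introns included, in RefSeq R64. The 3 genes of up to 1000 nucleotides, SRP21 (504), YKL154W (735) and SEC62 (825), had a median change of 0.69, beside 0.40 for 113 other genes of that class. The 5 genes over 1000 and up to 2000 nucleotides, SEC12, SRP54, ERO1, YDR292C and SRP72, had a median of 0.14, beside 0.09 for 184 others. The 4 genes over 2000 nucleotides were all coat genes, SEC24 (2781), SEC27 (2870), SEC26 (2922) and COP1 (3606), with a median of -0.13 beside -0.43 for 124 others. Spearman's rho between span and change was -0.76 over the 12 genes and -0.61 over 421 other named genes. These are descriptions across genes of the same arrays and are not independent replicates.

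Within the longest class, COP1 at -0.56 lay below the median of the others, whereas SEC27 at 0.28 lay above their range from the 10th percentile, -0.82, to the 90th, 0.09. SEC24 and SEC26, at -0.18 and -0.07, lay inside that range and above its median. With the block 0 of the 4 coat genes were higher and 1 lower, beside 2 higher and 84 lower of the 124 other long genes. In the short class 2 of the 3 listed genes were higher and 0 lower, beside 63 and 12 of 113 others, and in the middle class 1 of 5 was higher and 1 lower, beside 59 and 33 of 184. No difference between these shares was tested. SRP72, at 1923 nucleotides the longest gene of the particle measured, was the 1 of the 5 listed genes of the middle class that fell with the block. YDR292C, with 1866 nucleotides, stood at 0.14.

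**Figure D3:**
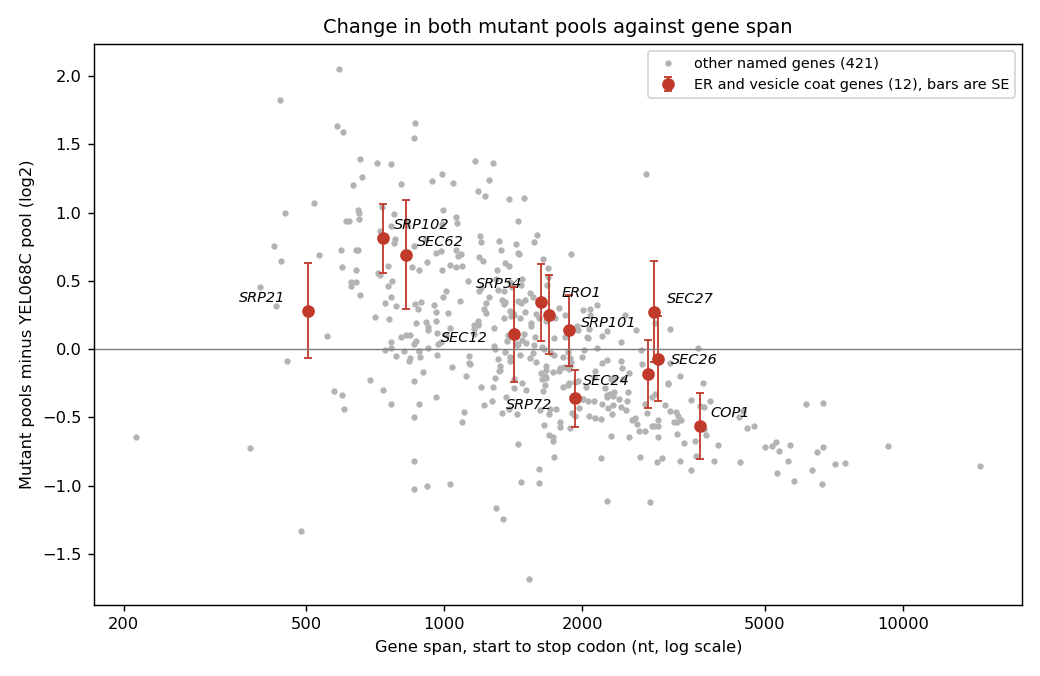
Change of the mean of both mutant pools against the YEL068C pool (log2, vertical) by gene span (nucleotides, log scale) for 12 ER and coat genes with their SE and 421 other named genes. The short genes YKL154W and SEC62 lie at 0.81 and 0.69, COP1 at -0.56, and the long coat genes SEC26 and SEC27 at -0.07 and 0.28.

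Other genes of the early secretory pathway were taken from a list of 51, of which 14 had values on all arrays. Without the block 1 of the 14 passed in the mean of both mutant pools in limma, the SNARE gene YKT6 (4.05% of all features), and with it 7 rose (29.7%) and 2 fell (30.2%). Their median change was 0.33, beside 0.20 for the 12 ER and coat genes. YKT6 lay at 1.42 and 1.01 on the NMD2 arrays, 1.24 and 0.60 on the NAM7 arrays and -0.19 and -0.86 on the YEL068C arrays, a rise of 1.59 (adjusted p = 0.0454 in limma without the block). That unblocked call held in 2 of 10 other unblocked settings, with 1 probe per gene and without NAM7 array 2, and was lost in the rest (adjusted p = 0.0395 to 0.268 over the 10). SEC17, whose product recycles SNAREs after fusion, and the Rab gene YPT1 rose by 1.02 and 0.94 with the block. TRS120 of the TRAPP tether, the tether gene USO1 and DSL1, whose product captures COPI vesicles at the ER, had the lowest values at -0.82, -0.74 and -0.35. The first 2 passed with the block and DSL1 did not (adjusted p = 0.0577 in limma).

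**Figure D4:**
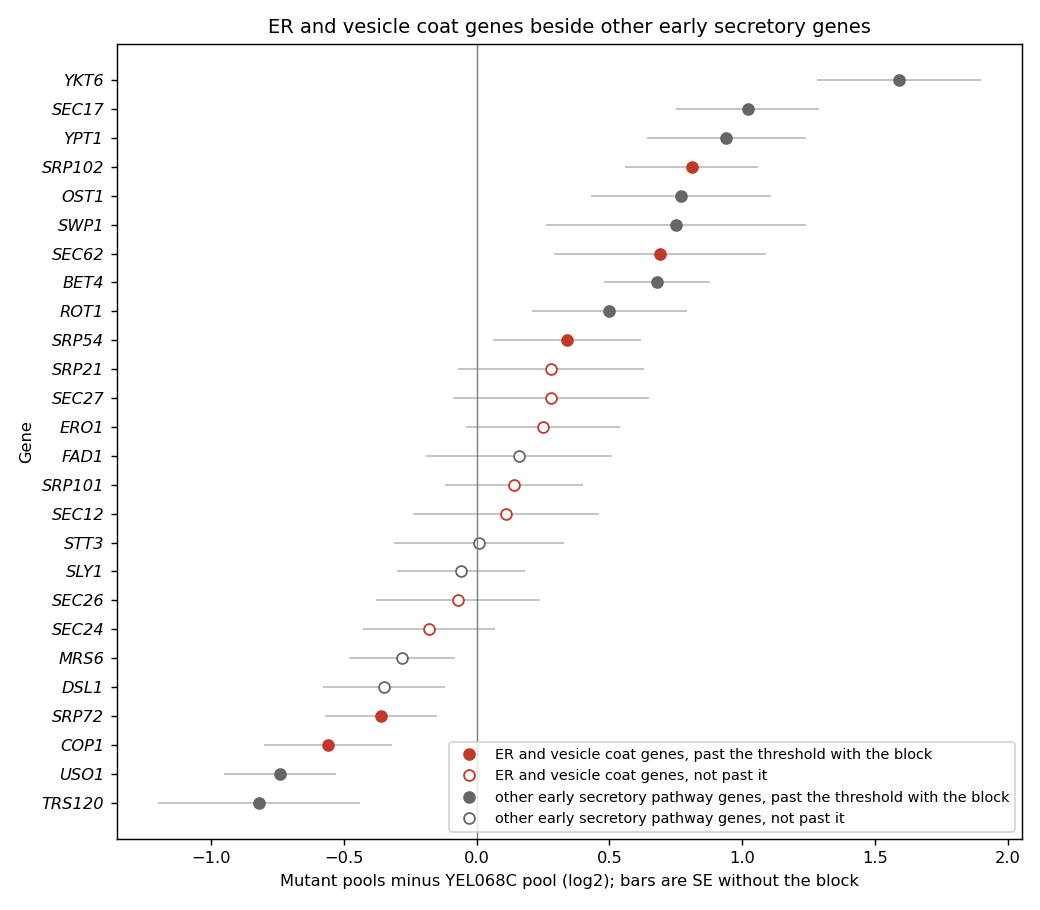
Change of the mean of both mutant pools against the YEL068C pool (log2) for 12 ER and coat genes and 14 other early secretory genes, with the SE without the block. Filled points passed with the replicate block, and the ER and coat genes lie between -0.56 and 0.81 inside the range of -0.82 to 1.59 of the others.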

How the data were processed

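Barcode arrays of 6 samples were used (3 pools, 2 arrays each). Barcodes from RNA (Cy3) and genomic DNA (Cy5) were hybridised together, per the labels' protocols. The authors deposited 1 table of log ratios, read here as log2, with a median of 0 in each column. Background correction, scaling and the reason for blank cells are not given in the sources used here, and scanner intensities were not analysed here, so precision rests on the number of arrays. The sign was turned. The platform table named 1 gene for 827 of 843 valued probes, several for 0 and none for 16. The submitters interpreted up-tag barcodes alone, per the labels, and tags could not be told apart here. Averaging the probes of a gene that had all 6 values gave 444 features, and each array was centred on their median. Tests used limma (version 3.58.1, under R 4.3.3; functions lmFit and eBayes), two-sided, at 0.05 after Benjamini-Hochberg adjustment over all features, with 1 term per pool. The replicate number as a block was an alternative. The numbers come from the sample titles and were treated as pairs because the deviations of same-numbered arrays correlated between pools (0.891, 0.853 and 0.894). The fits were tested on simulated data. Genes and lists, including the abundant genes and the other pathway genes, were chosen with earlier results of these data known. Named were all listed genes and the 3 largest increases and 3 largest decreases of the other pathway genes. Other settings were no centring beyond the deposited median of 0, quantile normalization, 1 probe per gene, looser filters on missing values and leaving out each array. A fit on the mutant arrays alone was chosen after seeing the data. Barcode sequences were not analysed here. The genes of Srp101p and Srp102p are written by their systematic names.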

Additional observations from a re-analysis of the deposited data

Results flagged for a closer look

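SEC61 and SRP14 drew attention because they had values on all 4 mutant arrays and on neither YEL068C array, so they lie outside every comparison with the reference. Their mean level over the mutant arrays was 1.98 for SEC61 and 0.36 for SRP14. The pattern was shared by 30 named genes in all, and its cause was not tested.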

How the results depend on the processing

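With the replicate block, 3 of 12 genes passed for NMD2, 5 for NAM7 and 5 for the mean of both, beside 239, 225 and 266 of all 444 features. The counts were 4, 5 and 5 with the block and no centring, beside 256, 250 and 279 of 444. Among the 587 features valued at least once per pool they were 3, 5 and 4 of 14 listed genes with the block, beside 295, 270 and 329. Under the block, leaving out 1 array lowered the number passing over all features in each comparison with YEL068C. The number of listed genes passing then fell or stayed the same. Without the block 0 genes of the list passed under every setting run, as in NMD2 against NAM7 with or without it. Over all features 18 passed in the mean without the block and 266 with it, and without it 0 without centring, 2 of 587 under the looser filter on missing values, 21 with quantile normalization and 0 to 9 when 1 array was left out. The median change of the 12 genes (0.26, 0.16 and 0.20) was 0.14 for NMD2, 0.05 for NAM7 and 0.08 for the mean without centring, 0.03 and 0.09 in arrays numbered 1 for the NMD2 pool and the mean, and 0.06 in arrays numbered 2 for the NAM7 pool. Without 1 array it ran from 0.07 to 0.26, from -0.04 to 0.16 and from 0.01 to 0.27, and from 0.08 to 0.20 between the mutant pools. The median level in the YEL068C pool (0.44) was 0.68 without centring and -0.44 in the deposited sign, in which rho with gene span is 0.76. Of the genes that passed with the block, YKL154W, SEC62, COP1 and SRP72 kept their sign under every setting run other than the deposited sign. SRP54 did not. SEC12 stood at -0.012 without centring, with or without the block. Leaving out 1 array without the block moved SRP21 between -0.25 and 0.82, YDR292C between -0.009 and 0.284 and ERO1 between -0.075 and 0.58. In the same unblocked fits SEC12 ran from -0.195 to 0.41, SEC26 from -0.278 to 0.138 and SEC27 from -0.182 to 0.732. There SRP54 ran from -0.01 to 0.695, SEC62 from 0.27 to 1.115 and SEC24 from -0.319 to -0.046. With the block and without YEL068C array 2, SRP21 stood at -0.068 and SEC26 at 0.045, and without YEL068C array 1 YDR292C stood at -0.002. The causes were not tested. Signal over background was not analysed here, so the spread of 2 arrays per pool from 1 cross limits every value.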
